A study of Mus musculus with 24 samples.

Results

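Complement and coagulation factors are plasma proteins that hepatocytes make and secrete, and the transcripts of 39 such genes were followed in livers of mice fed phloridzin. The genes were picked by name as factors of the complement system, the clotting system or fibrinolysis. Each was read from the probe sets (groups of array probes for 1 transcript) whose platform annotation names that gene alone, and the probe set with the highest mean over the 24 arrays stood for the gene. In all, 36 of the 39 genes were measured, on 49 probe sets, among 13118 genes tested, and all 36 passed the filter on dim probe sets. They were 16 complement genes, 18 clotting genes and 2 genes of fibrinolysis. C3 and Cpb2 are not named by the annotation used, and C4b is named only together with C4a on a shared probe set, so these 3 genes were not analysed here.

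Phloridzin is a glucoside of apple that blocks sodium-glucose cotransporters, the carriers that take up glucose in gut and kidney. Male BALB/c mice, aged 6 weeks at the start, ate the purified AIN-93G diet with no phloridzin (control) or with phloridzin at 0.1, 0.5 or 1.0% of the diet. The purified diet was common to all mice, feeding lasted 14 days, and each diet had 6 mice in cages of 3. The labels do not say which mice shared a cage, and they give 1 liver array per mouse.

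The 24 arrays were taken to hold fewer than 24 separate RNAs, an inference from their values and from cutoffs chosen after seeing the data. Over 1463 bright genes, 13 pairs of arrays differed by an SD of 0.044 to 0.058 on the log2 scale, and 8 more pairs by 0.11 to 0.14, while the other 255 pairs differed by 0.16 or more. Arrays of the first 2 kinds were averaged, so that the control diet kept 4 samples (array replicates 1 and 3, 2 and 4, 5, and 6), with 3 samples at 0.1% (replicates 2, 4 and 5), 2 at 0.5% (replicates 1, 2, 3 and 6, and replicates 4 and 5) and 2 at 1.0% (replicates 2, 3, 5 and 6, and replicate 4). Below, the values of a diet are given in that order. One RNA carried the labels of both 0.1% (replicates 1, 3 and 6) and 1.0% (replicate 1) and entered no comparison. Values are log2 signals after quantile normalization, on which the floor of 8 intensity units is 3, and they are levels of a probe set rather than of a protein. The tissue label was borne out by the hepatocyte list, of which 10 of 12 genes were tested at a median level of 12.9, with none at the floor. The 6 of 8 platelet genes and 7 of 10 neutrophil genes tested had median levels of 4.46 and 3.98. In whole liver, fewer cells of a type and less RNA per cell cannot be told apart.

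Complement is a cascade in which lectins or antibodies bound to a microbe switch on proteases, these build convertases that split C3 and C5, and the terminal components then assemble a pore in the target membrane. Clotting is a second protease cascade, which ends with thrombin cutting fibrinogen into fibrin, and it is held back by the serpins and by the protein C system. Plasmin later dissolves the clot. The liver supplies most of these proteins to plasma, and several are known to be raised in the acute phase response to inflammation.

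No member passed the test in any comparison between diets. The test was limma's moderated test with Benjamini-Hochberg adjustment over 13118 genes, with adjusted p under 0.05 as the threshold for a call. At 0.1% phloridzin 0 of 36 members were called, against 0.0229% of all genes. At 0.5% the count was again 0 of 36, beside 0.00762% of all genes, and at 1.0% it was 0 of 36, beside 0.0152%. The smallest adjusted p among the members was 0.490 at 0.1%, 0.731 at 0.5% and 0.760 at 1.0%. The precision of the design was limited by its 11 samples: the 95% interval of a member's difference from control reached a median of 0.21 on either side at 0.1% and of 0.24 at 0.5% and 1.0%, and at most 0.61 and 0.70. These intervals take no account of the 13118 genes tested, so a call needed a larger difference than those bounds. Proz at 0.1%, for example, differed by 0.31 (95% interval 0.10 to 0.52) and was not called.

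The directions leaned lower at 0.1% and slightly higher at the other doses. At 0.1%, 26 of 36 members were lower and 10 higher than in control livers, with a median difference of -0.09, beside 0.0041 over all genes. At 0.5%, 23 members were higher and 13 lower, with a median of 0.04, beside 0.0074 over all genes, and at 1.0% 24 were higher and 12 lower, with a median of 0.05, beside -0.023. These medians depended on how the arrays were scaled. With arrays centred on their medians, the median difference of all genes itself moved to -0.08, -0.09 and -0.20 at 0.1, 0.5 and 1.0%, and the complement median was -0.06 at 0.5% and -0.14 at 1.0%, and the clotting median -0.11 and -0.18. The sign against control at 0.5% and 1.0% therefore held under quantile normalization with the arrays joined as above. It turned under median centring and with no scaling. In both of those settings the complement medians still lay above the median of all genes at 0.5% and 1.0%. The clotting median lay above it at 1.0% and below it at 0.5%. Under quantile normalization the clotting median at 1.0% also turned lower when every array was counted as a mouse. It did so too when the RNA labelled both 0.1% and 1.0% was placed under both diets and only repeat arrays were joined.

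At an unadjusted p under 0.05, a looser rule that gives no call, 7 of 36 members (19.4%) differed from control at 0.1%, where 8.46% of all genes did. Those that were lower were C6, C8a, Cfi, C4bp, Fgb and F11, beside 3.93% of all genes, and the member that was higher was Proz, beside 4.54% of all genes. At 0.5% there were 3 of 36 (8.33%), against 5.18% of all genes, and Pros1, Kng1 and Serping1 were all higher, as were 2.51% of all genes. At 1.0% there was 1 of 36 (2.78%), C2, against 6.46% of all genes, a share below the background; C2 was higher, as were 2.47% of all genes. These counts moved with single samples. At 0.1% the count was 2 of 36 (5.56%), C4bp and Proz, without 0.1% replicate 5, beside 8.21% of all genes; it was 1 without control replicates 1 and 3, 2 without control replicates 2 and 4, and 11 without 0.1% replicate 2. At 0.5% it was 1 without control replicate 5 or without 0.5% replicates 1, 2, 3 and 6, and 5 without 0.1% replicate 5. At 1.0% it was 0 without control replicate 6 or without either 1.0% sample.

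**Figure D1:**
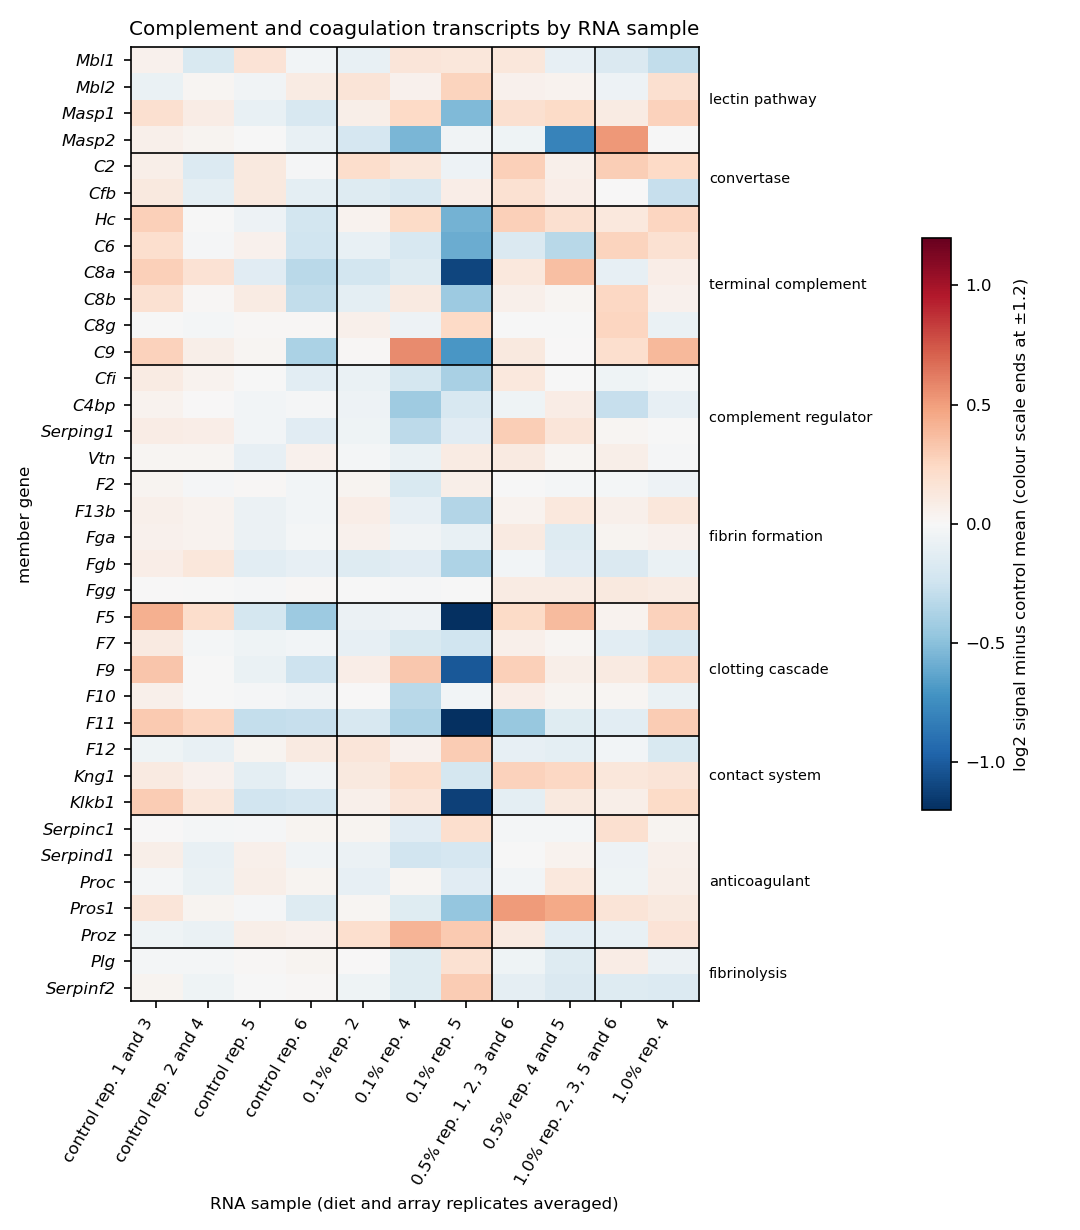
Log2 signal of each of the 36 members (rows, grouped by role) minus its mean over the 4 control samples, in each of the 11 RNA samples (columns, by diet from control to 1.0% phloridzin); blue is lower and red higher than the control mean, and the colour scale ends at 1.2 on either side. The column of 0.1% replicate 5 holds the strongest blue fields, at C8a, F5, F9, F11 and Klkb1.

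Among the 4 genes that start the lectin pathway, the samples differed most for Masp2, a protease that cleaves C4 and C2. Its level was 9.48, 9.45, 9.42 and 9.34 in control livers, 9.22, 8.87 and 9.37 at 0.1%, 9.37 and 8.62 at 0.5%, and 9.95 and 9.42 at 1.0%. The lowest value was that of 0.5% replicates 4 and 5 and the highest that of 1.0% replicates 2, 3, 5 and 6, while the other sample of each diet was close to the controls. The 0.5% difference from control was -0.43 (SE 0.20, adjusted p = 0.955 by limma), and the F-test over the 4 diets gave an adjusted p of 0.512. A second, dimmer probe set of Masp2 went the other way, with 0.35 at 0.5% and 0.13 at 0.1%, where the brighter one gave -0.43 and -0.27, so the direction of Masp2 was not settled.

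Mbl1 and Mbl2 encode mannose-binding lectins, which recognise sugars on microbes. Mbl1 was at 10.96, 10.72, 11.06 and 10.87 in control livers, 10.81, 11.05 and 11.04 at 0.1%, 11.04 and 10.80 at 0.5%, and 10.73 and 10.60 at 1.0%. The 1.0% samples were at the low end, with a difference of -0.23 from control (SE 0.12, adjusted p = 0.771 by limma), and they overlapped the control range. Mbl2 was at 11.71, 11.82, 11.75 and 11.89 in control livers, 11.95, 11.85 and 12.06 at 0.1%, 11.85 and 11.83 at 0.5%, and 11.73 and 11.99 at 1.0%. The 0.1% group averaged 11.95 ± 0.11 (SD, n = 3) and the control group 11.79 ± 0.08 (SD, n = 4), and the groups overlapped. Masp1, the protease that activates Masp2, differed from control by -0.07, 0.21 and 0.19 at 0.1, 0.5 and 1.0%. Its 4 other, dimmer probe sets gave -0.45 to -0.02 at 0.5% and -0.42 to 0.07 at 1.0%, so the direction of Masp1 was not settled.

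C2 and Cfb supply the proteases of the C3 and C5 convertases, C2 in the classical and lectin pathways and Cfb, factor B, in the alternative pathway. C2 was at 9.63, 9.39, 9.68 and 9.54 in control livers, 9.78, 9.69 and 9.50 at 0.1%, 9.85 and 9.62 at 0.5%, and 9.86 and 9.80 at 1.0%. Both 1.0% samples lay above all 4 controls, by a mean difference of 0.27 (SE 0.12, adjusted p = 0.760 by limma). C2 was the only member at an unadjusted p under 0.05 for the slope on phloridzin content, at 0.25 per percent of the diet, and 1 of 36 members (2.78%) compares with 8.82% of all genes in either direction and 3.39% with a positive slope. The other 2 probe sets of C2 gave 0.0094 and 0.16 at 1.0%. The brightest one gave -0.04 there with median centring, where the median of all genes was -0.20. Cfb was at 10.99, 10.76, 10.99 and 10.76 in control livers, 10.72, 10.68 and 10.95 at 0.1%, 11.05 and 10.95 at 0.5%, and 10.88 and 10.59 at 1.0%. Every phloridzin diet overlapped the control range, while both 0.5% samples lay above all samples at 0.1% and 1.0%. The differences of Cfb from control were -0.09, 0.13 and -0.14.

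The terminal components build the membrane attack complex, and they included the complement gene with the widest range, C8a, which encodes the alpha chain of C8. It was at 12.68, 12.56, 12.25 and 12.06 in control livers, 12.17, 12.24 and 11.28 at 0.1%, 12.51 and 12.75 at 0.5%, and 12.29 and 12.47 at 1.0%. The first 2 samples at 0.1% lay within the control range and the third, replicate 5, lay far below it. The 0.1% difference was -0.49 (SE 0.20, adjusted p = 0.553 by limma), and it was -0.18 without that sample. Against 0.1%, the 0.5% group was higher by 0.73 (SE 0.24, adjusted p = 0.339).

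C6, which binds the C5b fragment and so begins the complex, was at 10.97, 10.75, 10.82 and 10.53 in control livers, 10.68, 10.58 and 10.17 at 0.1%, 10.60 and 10.43 at 0.5%, and 11.03 and 10.95 at 1.0%. Both 1.0% samples were above every 0.1% and 0.5% sample. The difference was 0.51 between 1.0% and 0.1% (SE 0.15, adjusted p = 0.242), 0.48 between 1.0% and 0.5% (SE 0.17, adjusted p = 0.999), and -0.29 between 0.1% and control (SE 0.13, adjusted p = 0.571). The adjusted p of 0.242 was the smallest of any member in any comparison of 2 diets.

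Hc encodes C5, whose cleavage begins the terminal pathway. It was at 12.11, 11.82, 11.76 and 11.61 in control livers, 11.87, 12.06 and 11.25 at 0.1%, 12.12 and 12.02 at 0.5%, and 11.95 and 12.08 at 1.0%. C9, which polymerises to line the pore, was at 12.96, 12.76, 12.71 and 12.31 in control livers, 12.70, 13.26 and 11.99 at 0.1%, 12.80 and 12.69 at 0.5%, and 12.89 and 13.07 at 1.0%. For C9 the highest and the lowest of all 11 samples were both at 0.1%. Without replicate 5 the 0.1% difference of C9 was 0.29 in place of -0.04. C8b and C8g, the other chains of C8, differed from control by -0.15 to 0.15 over the 3 doses. Of the 6 terminal genes, 5 were lower at 0.1% and 5 were higher at 1.0% than in control livers, and none was called.

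The 4 regulators of complement were all lower than control at 0.1% and all higher at 0.5%, with medians of -0.20 and 0.06. Serping1 encodes the C1 inhibitor, a serpin that stops the first proteases of complement and the contact system. It was at 12.34, 12.33, 12.22 and 12.12 in control livers, 12.20, 11.94 and 12.11 at 0.1%, 12.55 and 12.39 at 0.5%, and 12.28 and 12.25 at 1.0%. Both 0.5% samples were above all other samples. The difference was 0.22 between 0.5% and control (SE 0.10, adjusted p = 0.941 by limma) and 0.39 between 0.5% and 0.1% (SE 0.11, adjusted p = 0.323). With no scaling of the arrays the 0.5% difference from control was -0.0045, beside a median of -0.19 over all genes.

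Cfi, the protease that inactivates C3b and C4b, was at 12.50, 12.45, 12.40 and 12.28 in control livers, 12.33, 12.20 and 12.02 at 0.1%, 12.53 and 12.41 at 0.5%, and 12.36 and 12.38 at 1.0%. C4bp, its cofactor for C4b, was at 12.24, 12.20, 12.16 and 12.18 in control livers, 12.13, 11.76 and 12.00 at 0.1%, 12.14 and 12.28 at 0.5%, and 11.92 and 12.10 at 1.0%. All 3 of the 0.1% samples and both 1.0% samples of C4bp lay below the 4 controls, whose SD was 0.034. The 0.1% difference of C4bp was -0.23 (SE 0.09, adjusted p = 0.553) and it was -0.25 without replicate 5, and the difference of Cfi was -0.23 (SE 0.09, adjusted p = 0.540) and -0.15 without it. Vtn, vitronectin, which also blocks the terminal complex, stayed within 0.21 over all 11 samples.

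**Figure D2:**
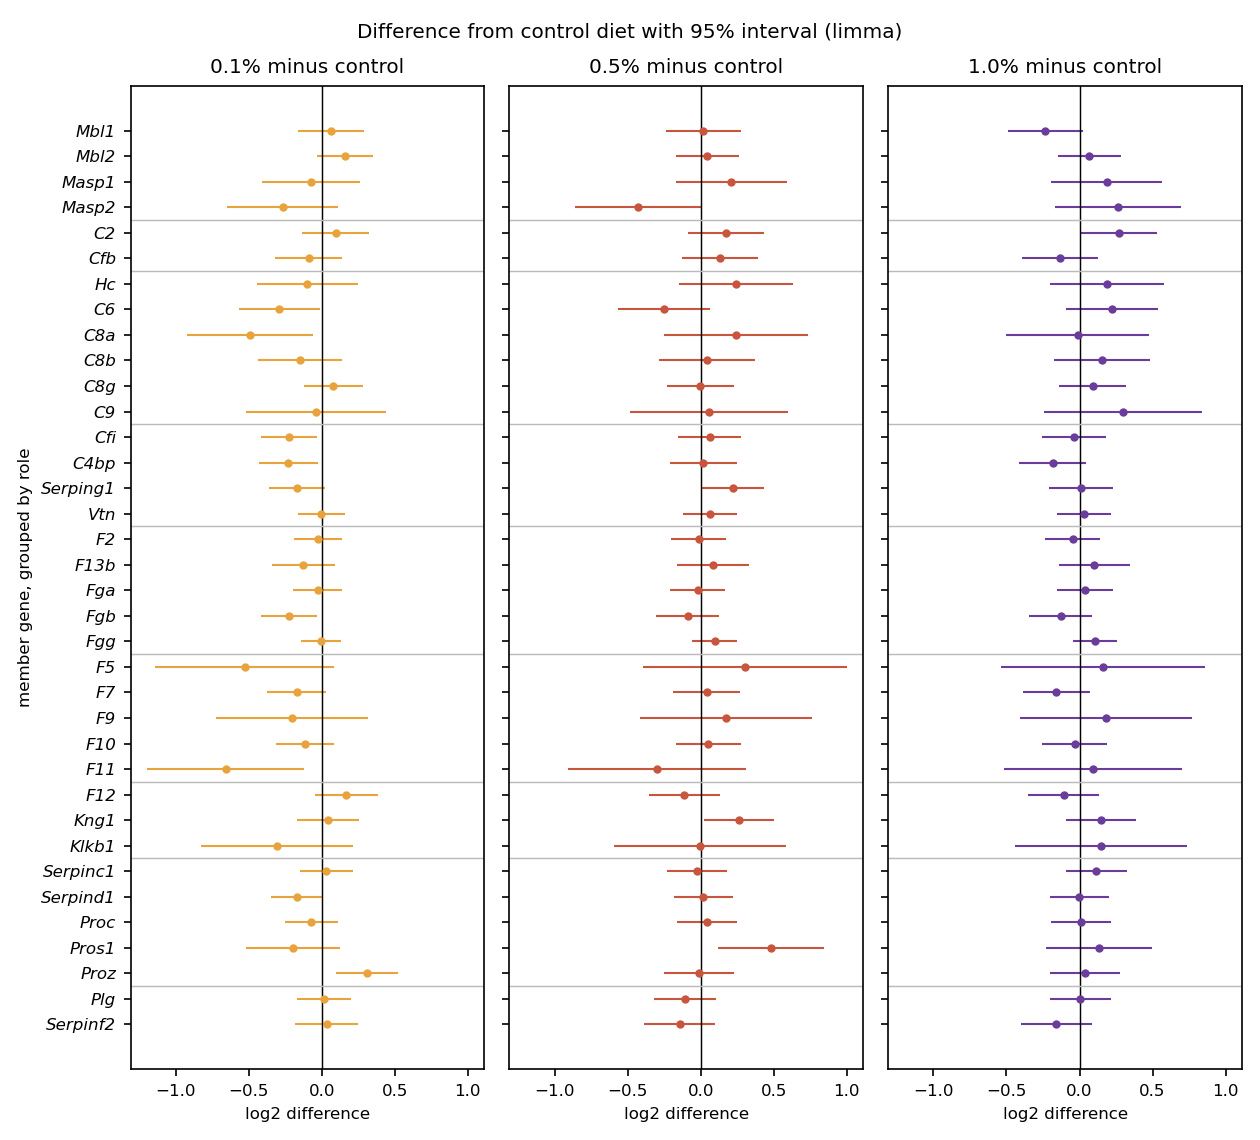
Difference of each of the 36 members from the control diet on the log2 scale (horizontal axis) at 0.1, 0.5 and 1.0% phloridzin (3 panels), with points for limma's estimate and lines for its 95% interval; rows are genes grouped by role. The widest intervals belong to F5, F11, F9, Klkb1, C9 and C8a, and the narrowest to Fgg.

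Fibrin formation held the brightest members. Fibrinogen is built from 3 chains, encoded by Fga, Fgb and Fgg, which thrombin (F2) converts to fibrin, and F13b carries the subunit that joins fibrin strands. Fgb was at 13.54, 13.60, 13.34 and 13.36 in control livers, 13.30, 13.32 and 13.09 at 0.1%, 13.43 and 13.32 at 0.5%, and 13.29 and 13.38 at 1.0%. Each 0.1% sample was below each control, by a mean difference of -0.22 (SE 0.09, adjusted p = 0.541 by limma), and without replicate 5 the difference was -0.15. Fga was at 13.59, 13.58, 13.47 and 13.52 in control livers, 13.59, 13.50 and 13.45 at 0.1%, 13.65 and 13.39 at 0.5%, and 13.57 and 13.59 at 1.0%, so that the diets overlapped.

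Fgg was at 13.25, 13.24, 13.23 and 13.26 in control livers, 13.24, 13.23 and 13.24 at 0.1%, 13.34 and 13.34 at 0.5%, and 13.36 and 13.34 at 1.0%. All samples at 0.5% and 1.0% lay above all samples at 0.1% and on the control diet. The differences from control were 0.09 at 0.5% (SE 0.07, adjusted p = 0.985) and 0.11 at 1.0% (SE 0.07, adjusted p = 0.810). The residual SD of Fgg alone was 0.0114, the smallest of the members, and limma's SE is larger because it draws on the spread of other genes of like signal. Fga, Fgb and Fgg had 21, 33 and 34 of 45037 probe sets brighter than their own, near the top of a scale that ended at 14.06, and quantile normalization gives arrays equal values at equal ranks. How much either compresses differences of these chains was not tested.

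The 3 fibrinogen genes lie side by side on chromosome 3, and their promoter windows are shown because the chains form 1 protein yet gave unlike values. Each window runs from 250 bases before the gene's start to 50 after it, 5′ to 3′ on the gene's strand, as RefSeq gives it on GRCm38.p6. Fga is at chr3:83025903-83026202, plus strand, Fgb at chr3:83049814-83050113, minus strand, and Fgg at chr3:83007474-83007773, plus strand. Capitals mark matches, on either strand, to GTTAATNA (a half-site of HNF1, the hepatocyte factor), TTGCNNAA (C/EBP) or TTCNNNGAA (STAT), and no 2 matches overlapped.
Fga: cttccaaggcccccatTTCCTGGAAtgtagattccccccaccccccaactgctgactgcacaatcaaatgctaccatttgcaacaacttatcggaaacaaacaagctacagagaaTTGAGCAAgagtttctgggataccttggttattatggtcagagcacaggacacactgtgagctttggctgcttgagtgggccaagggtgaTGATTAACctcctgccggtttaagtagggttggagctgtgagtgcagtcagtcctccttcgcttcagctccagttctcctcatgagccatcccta
Fgb: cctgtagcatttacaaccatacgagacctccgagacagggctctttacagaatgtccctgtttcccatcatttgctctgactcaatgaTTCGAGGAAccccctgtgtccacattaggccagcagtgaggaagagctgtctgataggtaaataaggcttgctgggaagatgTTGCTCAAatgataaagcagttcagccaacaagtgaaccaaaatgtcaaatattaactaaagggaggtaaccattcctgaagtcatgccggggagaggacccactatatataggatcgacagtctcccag
Fgg: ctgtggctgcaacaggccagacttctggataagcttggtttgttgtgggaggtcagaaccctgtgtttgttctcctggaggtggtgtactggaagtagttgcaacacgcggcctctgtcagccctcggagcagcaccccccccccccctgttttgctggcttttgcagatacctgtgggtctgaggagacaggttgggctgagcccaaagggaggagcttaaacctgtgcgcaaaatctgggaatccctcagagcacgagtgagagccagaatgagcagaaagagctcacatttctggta

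The Fga window held 1 match to each of the 3 motifs, at bases -45 to -38 for HNF1, -135 to -128 for C/EBP and -234 to -226 for STAT, counted from the start as 0. The Fgb window held a C/EBP match at -80 to -73 and a STAT match at -162 to -154, and the Fgg window held none of the 3. Windows were found for 28 of the 36 members, in 29 windows since C8g has several. The HNF1 half-site was in 17.2% of the member windows, beside 2.54% of 32851 windows of all genes. C/EBP letters were in 24.1% beside 10.8%, STAT letters in 24.1% beside 8.30%, and TATAAA in 10.3% beside 13.6%. A match of letters is a description of the window and shows no binding, and no match says only that these letters are not in it.

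F2 was at 12.62, 12.58, 12.61 and 12.56 in control livers, 12.62, 12.41 and 12.66 at 0.1%, 12.59 and 12.57 at 0.5%, and 12.57 and 12.53 at 1.0%. F13b was at 10.935, 10.923, 10.807 and 10.846 in control livers, 10.955, 10.775 and 10.527 at 0.1%, 10.921 and 11.004 at 0.5%, and 10.938 and 11.017 at 1.0%. Prothrombin transcripts thus stayed within 0.25 over all samples, and the intervals of F2 bounded its differences from control at -0.19 to 0.14 at 0.1% and at -0.23 to 0.14 at 1.0%.

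The clotting cascade proper held the members with the widest ranges. F11, the factor XI that activates factor IX, was at 10.33, 10.28, 9.73 and 9.74 in control livers, 9.82, 9.65 and 8.60 at 0.1%, 9.56 and 9.87 at 0.5%, and 9.89 and 10.32 at 1.0%. F5, the cofactor that speeds prothrombin cleavage, was at 11.35, 11.13, 10.71 and 10.48 in control livers, 10.85, 10.86 and 9.46 at 0.1%, 11.15 and 11.29 at 0.5%, and 10.96 and 11.19 at 1.0%. In both genes 0.1% replicate 5 lay further below the next lowest sample than the controls were spread among themselves. F11 was 1.58-fold lower at 0.1% than in control livers (log2 difference -0.66, SE 0.25, adjusted p = 0.527 by limma), and -0.28 without that sample. F5 differed by -0.53 (SE 0.29, adjusted p = 0.622), by -0.06 without that sample, and by -0.06 on its second probe set.

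F7, the factor that tissue factor switches on, was at 9.12, 8.99, 8.97 and 8.98 in control livers, 8.92, 8.84 and 8.78 at 0.1%, 9.07 and 9.04 at 0.5%, and 8.89 and 8.82 at 1.0%. The 0.1% and 1.0% samples all lay below the 4 controls, and the 0.5% samples lay within the control range. The differences were -0.17 at 0.1% (SE 0.09, adjusted p = 0.629) and -0.16 at 1.0% (SE 0.11, adjusted p = 0.810). F9 and F10, the vitamin K-dependent proteases between F7 and thrombin, differed from control by -0.20 and -0.11 at 0.1%, 0.17 and 0.05 at 0.5%, and 0.18 and -0.03 at 1.0%. F9 gave 0.20 at 0.1% without replicate 5, a turn of its direction, and the 2 dimmer probe sets of F10 gave 0.09 and 0.0068 there with all samples.

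The windows of F5, F11 and C8a, the members with the 3 widest ranges over the samples, are given next in the same form. F5 is at chr1:164151585-164151884, plus strand, F11 at chr8:45261982-45262281, minus strand, and C8a at chr4:104876349-104876648, minus strand.
F5: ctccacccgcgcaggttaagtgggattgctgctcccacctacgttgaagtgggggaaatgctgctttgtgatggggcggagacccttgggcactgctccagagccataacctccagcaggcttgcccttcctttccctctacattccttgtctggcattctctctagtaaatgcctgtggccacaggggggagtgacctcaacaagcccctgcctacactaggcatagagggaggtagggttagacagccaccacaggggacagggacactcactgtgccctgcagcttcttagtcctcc
F11: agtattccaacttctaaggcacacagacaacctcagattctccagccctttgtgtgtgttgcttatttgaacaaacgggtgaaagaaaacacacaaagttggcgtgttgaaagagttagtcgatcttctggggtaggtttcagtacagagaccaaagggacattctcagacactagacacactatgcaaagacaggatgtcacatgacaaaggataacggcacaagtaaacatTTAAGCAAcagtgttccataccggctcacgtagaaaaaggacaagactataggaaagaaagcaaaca
C8a: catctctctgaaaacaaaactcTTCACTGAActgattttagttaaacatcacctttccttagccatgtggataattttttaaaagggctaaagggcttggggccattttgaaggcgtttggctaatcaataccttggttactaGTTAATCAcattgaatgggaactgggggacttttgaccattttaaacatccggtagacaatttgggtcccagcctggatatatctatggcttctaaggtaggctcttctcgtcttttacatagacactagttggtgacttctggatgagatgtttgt

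The F11 window held a C/EBP match at bases -17 to -10, the C8a window an HNF1 match at -107 to -100 and a STAT match at -228 to -220, and the F5 window none of these motifs. These 3 transcripts had ranges of 1.72, 1.46 and 1.89 over the 11 samples in the order F11, C8a and F5.

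**Figure D3:**
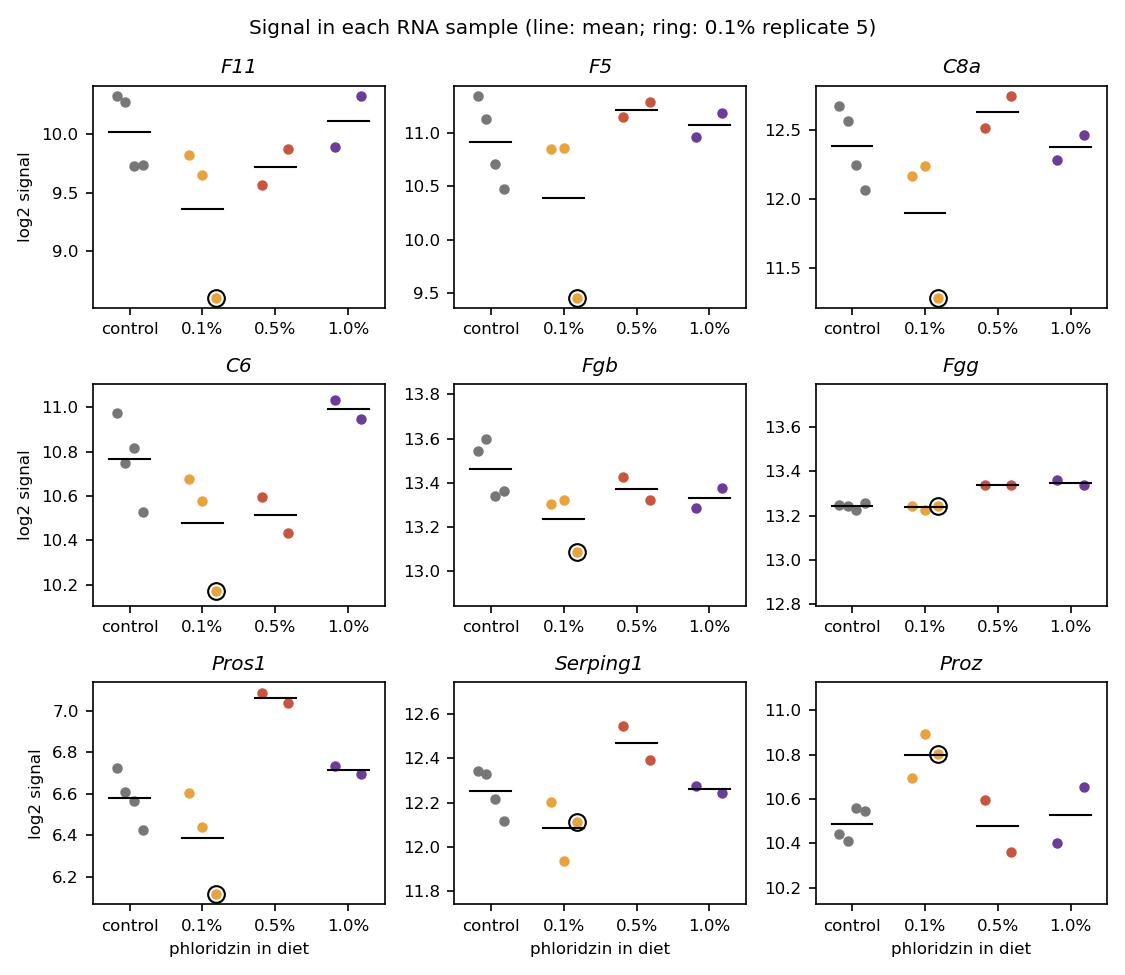
Log2 signal of 9 members (panels) in each RNA sample, by diet from control to 1.0% phloridzin; points are samples, bars their mean, and the ring marks 0.1% replicate 5. In F11, F5, C8a, C6, Fgb and Pros1 the ringed sample is the lowest of all 11, and in Fgg the 0.5% and 1.0% samples lie above the rest.

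The contact system starts clotting on foreign surfaces and releases bradykinin. F12, its first protease, was at 9.22, 9.18, 9.31 and 9.38 in control livers, 9.42, 9.32 and 9.58 at 0.1%, 9.17 and 9.15 at 0.5%, and 9.24 and 9.09 at 1.0%. All 3 samples at 0.1% were above all 4 samples at the higher doses. F12 differed by -0.28 between 0.5% and 0.1% (SE 0.12, adjusted p = 0.444 by limma) and by -0.28 between 1.0% and 0.1% (SE 0.12, adjusted p = 0.382).

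Kng1, kininogen, the source of bradykinin, was at 12.56, 12.51, 12.34 and 12.41 in control livers, 12.57, 12.66 and 12.25 at 0.1%, 12.73 and 12.70 at 0.5%, and 12.59 and 12.61 at 1.0%. The 0.5% and 1.0% samples were all above the highest control, with differences of 0.26 (SE 0.11, adjusted p = 0.905) and 0.15 (SE 0.11, adjusted p = 0.832). The second probe set of Kng1 gave 0.02 at 0.5% and 0.06 at 1.0%. Klkb1, plasma prekallikrein, differed by -0.31 at 0.1% and by 0.10 there without replicate 5.

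The inhibitors of clotting included the members with the lowest p at 0.1% and at 0.5%. Pros1, protein S, the cofactor of activated protein C, was the dimmest member, at 6.73, 6.61, 6.56 and 6.43 in control livers, 6.60, 6.44 and 6.12 at 0.1%, 7.09 and 7.04 at 0.5%, and 6.73 and 6.69 at 1.0%. Both 0.5% samples were above every other sample. Pros1 was 1.40-fold higher at 0.5% than in control livers (log2 difference 0.48, 95% interval 0.12 to 0.85, adjusted p = 0.731 by limma) and differed by 0.68 between 0.5% and 0.1% (SE 0.18, adjusted p = 0.297).

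Proz, protein Z, the cofactor of an inhibitor of factor Xa, was at 10.44, 10.41, 10.56 and 10.54 in control livers, 10.69, 10.89 and 10.80 at 0.1%, 10.60 and 10.36 at 0.5%, and 10.40 and 10.65 at 1.0%. The 3 samples at 0.1% were above all others. The 0.1% difference was 0.31 (95% interval 0.10 to 0.52, adjusted p = 0.490), and 0.30 without replicate 5. The second probe set of Proz gave -0.31 at 0.1%, and the mean of both probe sets -0.0033, so the direction of Proz was not settled either.

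Serpinc1, antithrombin, the main inhibitor of thrombin, was at 12.70, 12.67, 12.68 and 12.73 in control livers, 12.73, 12.56 and 12.90 at 0.1%, 12.67 and 12.67 at 0.5%, and 12.89 and 12.73 at 1.0%. Proc, protein C, was at 11.27, 11.21, 11.37 and 11.33 in control livers, 11.20, 11.32 and 11.16 at 0.1%, 11.26 and 11.42 at 0.5%, and 11.24 and 11.37 at 1.0%. Neither moved outside a band of 0.34 over the samples. The diets overlapped for Proc, and for Serpinc1 the 0.5% samples lay just below the lowest control and below both 1.0% samples. Serpind1, heparin cofactor II, differed by -0.17 at 0.1% (adjusted p = 0.601) and by 0.02 and -0.0013 at the higher doses.

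Fibrinolysis was represented by Plg, plasminogen, and Serpinf2, its inhibitor alpha-2-antiplasmin. Plg was at 12.57, 12.56, 12.60 and 12.62 in control livers, 12.59, 12.45 and 12.78 at 0.1%, 12.54 and 12.43 at 0.5%, and 12.67 and 12.52 at 1.0%. Serpinf2 was at 11.63, 11.54, 11.59 and 11.61 in control livers, 11.54, 11.44 and 11.90 at 0.1%, 11.48 and 11.42 at 0.5%, and 11.44 and 11.43 at 1.0%. The Serpinf2 samples at 0.5% and 1.0% were all below the 4 controls, with differences of -0.14 and -0.16 (adjusted p = 0.985 and 0.823 by limma). Unlike most members, both genes were highest in 0.1% replicate 5.

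Between doses, no member was called in the comparisons that leave the control samples out. At an unadjusted p under 0.05, 8 of 36 members (22.2%) differed between 0.5% and 0.1%, beside 10.7% of all genes, with 6 higher and 2 lower at 0.5% (5.21% and 5.47% of all genes). Between 1.0% and 0.1% there were 6 of 36 (16.7%), beside 12.2% of all genes, with 3 higher and 3 lower at 1.0% (4.89% and 7.33% of all genes). Between 1.0% and 0.5% there were 2 of 36 (5.56%), Masp2 and C6, beside 4.19% of all genes, and both were higher, as were 1.62% of all genes. The members higher at 0.5% than at 0.1% were C8a, Cfi, C4bp, Serping1, F5 and Pros1, and those lower were F12 and Proz. Over the 4 diets together, 6 of 36 members (16.7%) had an unadjusted F-test p under 0.05, beside 9.25% of all genes, with a smallest adjusted p of 0.464 for Pros1. Each pair of these comparisons shares the samples of a diet, so their counts are not separate evidence.

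Among the 11 samples compared, 0.1% replicate 5 stood apart for many members. In it, 17 of 36 members (47.2%) had their lowest value of the 11 samples, while 24.3% of 1467 bright genes had theirs in it. The mean of all members in that sample was -0.27 relative to the control mean, against -0.01 and -0.05 in the other 0.1% samples and -0.09 to 0.11 in the controls. The cascade factors F5, F7, F9, F10 and F11 averaged -0.83 in it, the terminal complement genes -0.53 and fibrin formation -0.15. Mbl2, F2, F12, Serpinc1, Plg and Serpinf2 had instead their highest value there, which is 16.7% of the members beside 27.6% of the bright genes. The RNA labelled both 0.1% and 1.0%, which entered no comparison, had low means too. They were -0.30 over all members, -0.76 over the cascade factors, -0.59 over the terminal complement genes and -0.24 over fibrin formation.

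**Figure D4:**
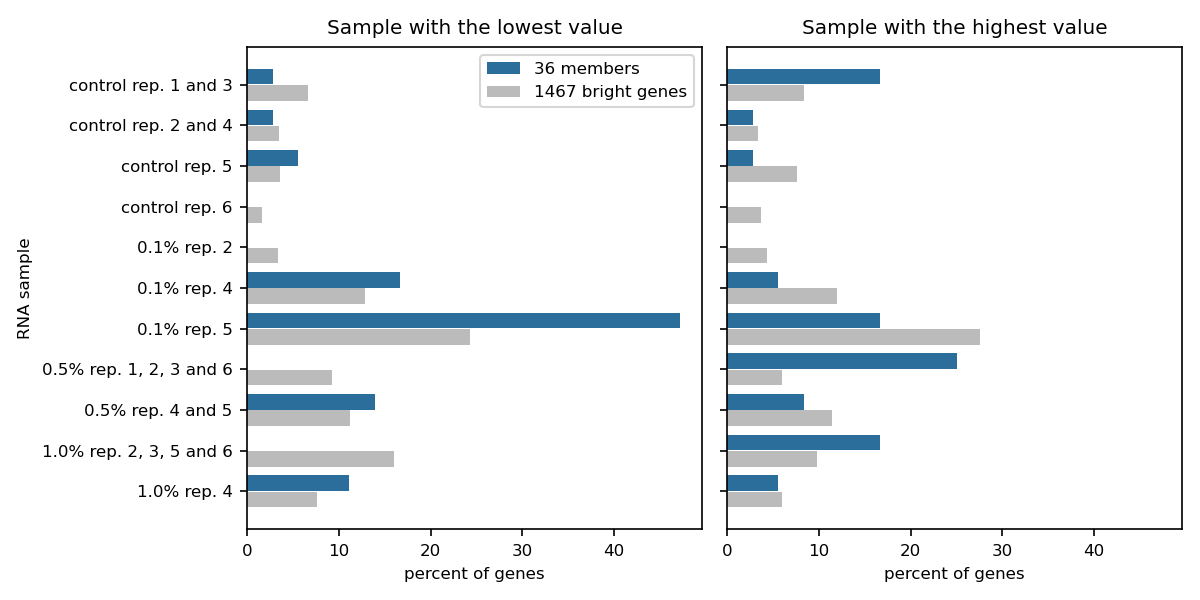
Percent of genes (horizontal axis) whose lowest (left panel) or highest (right panel) value of 11 falls in each RNA sample (vertical axis), for the 36 members (blue) and for 1467 genes with a mean log2 signal above 9 (grey). The sample 0.1% replicate 5 holds the lowest value of 47.2% of the members and of 24.3% of the bright genes.

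Without 0.1% replicate 5, 24 of 36 members were lower at 0.1% than in control livers, with a median of -0.05, beside 6787 of 13118 genes lower and a median of -0.0098. Of the 26 members lower with that sample in, 20 were also lower without it. In all, 10 of 36 members (27.8%) changed sign, beside 22.7% of all genes. Those that turned higher were C9, F9, Masp1, Hc, Klkb1 and Fga, at 0.29, 0.20, 0.15, 0.14, 0.10 and 0.0042, and those that turned lower were C8g, Serpinc1, Plg and Serpinf2, at -0.0032, -0.05, -0.07 and -0.10. The hepatocyte score (the mean log2 level of the 10 genes tested minus its control mean) was -0.20 in replicate 5, and it ranged from -0.20 to 0.07 at 0.1%, from -0.07 to -0.01 at 0.5%, from -0.09 to 0.07 at 1.0% and from -0.05 to 0.08 in control livers. The list was mixed in replicate 5. Apob at 11.12 and G6pc at 10.13 lay below the control ranges of 11.70 to 12.45 and 10.89 to 11.16. Pck1 and Cyp2e1 lay just below theirs, Alb and Ttr lay above theirs, and Apoa1, Cps1, Ahsg and Hnf4a lay within. The part of hepatocyte content in the low values of replicate 5 was not tested.

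Another sample at this dose, 0.1% replicate 4, held the lowest value for F2, F10, C4bp, Serping1, Serpinc1 and Serpind1. Its RNA had the largest difference between the 3′ and 5′ probe sets of actin, 2.30 on the log2 scale, against 1.23 to 1.71 in the other 10 samples, a difference that is known to grow as RNA degrades. For Gapdh the same difference was -0.04 in it, against -0.39 to -0.16 in the other 10 samples. That was also the largest, but it lay below 0. Scores of 12 of 13 Kupffer cell genes and of all 10 sinusoidal endothelium genes were -0.44 and -0.50 in it, against -0.05 to 0.11 and -0.06 to 0.06 in the controls. No gene of these 2 lists was at the floor on every array. In this sample Pecam1, on the endothelium list, was at the floor of 3, against 4.26 to 5.11 in the controls, which lowers that score. The part of RNA quality or cell content in the values of the 6 members was not tested. 

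**Figure D5:**
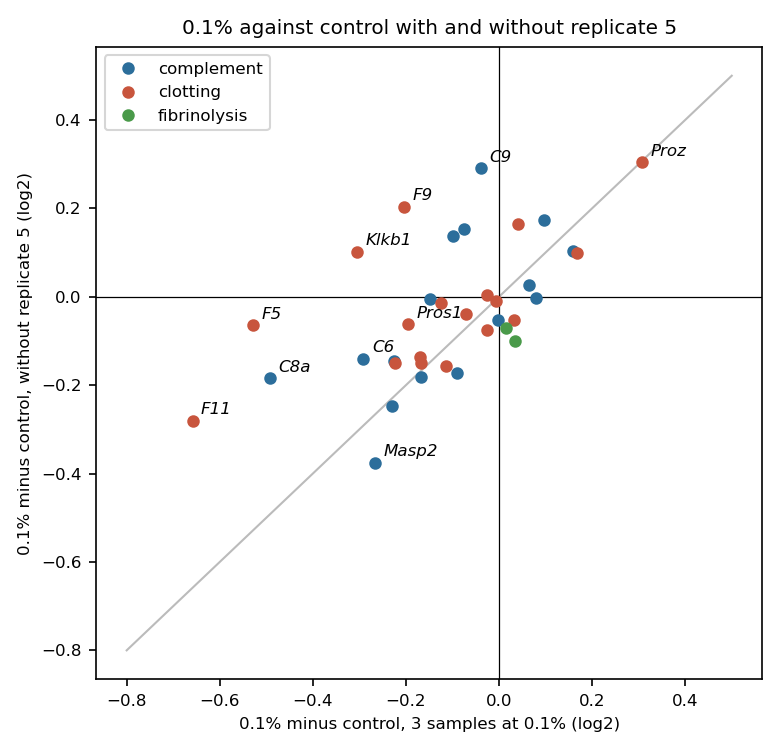
Difference of each member between 0.1% phloridzin and control with all 3 samples at 0.1% (horizontal axis) and without replicate 5 (vertical axis), on the log2 scale, coloured by group; the grey line marks equal values. F11, F5 and C8a, at -0.66, -0.53 and -0.49 with the sample, are at -0.28, -0.06 and -0.18 without it, while Proz stays at 0.31 and 0.30.

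Across all 11 samples the members varied about as much as other bright genes. The range of a member had a median of 0.49, beside 0.56 for the 1467 bright genes, and the residual SD within diets a median of 0.12 beside 0.15. The widest ranges were those of F5 (1.89), F11 (1.72), C8a (1.46), Klkb1 (1.42), F9 (1.35), Masp2 (1.33) and C9 (1.27). The narrowest were those of Fgg (0.13), Vtn (0.21) and F2 (0.25). Of the 36 members, 17 were read from probe sets in the brightest 1% of the array, where a ceiling of the signal would narrow the range, which was not tested.

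The acute phase genes, which share regulators with fibrinogen and several complement factors, differed between samples more than the members did. Their score over 24 genes was 1.28 and 0.34 in the 0.5% samples and 0.40 and -0.03 in the 1.0% samples, against -0.13 to 0.09 in control livers. In the sample with the score of 1.28 (0.5% replicates 1, 2, 3 and 6), 9 of 36 members had their highest value, among them Serping1, Hc, Cfb, Kng1, Fga and Pros1, which is 25.0% of the members beside 5.93% of the bright genes. The mean of all members in it was 0.07. The score of 9 clock output genes was -1.27 in that sample, against -0.33 to 0.28 in the controls, and the part of either in the values of the members was not tested.

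Other genes of both systems were also without a call. Of 20 other complement genes tested, 8 were higher and 12 lower at 0.1%, and of 26 other clotting and fibrinolysis genes 8 were higher and 18 lower. At 0.1%, 2 of the 20 and 2 of the 26 had an unadjusted p under 0.05, beside 8.46% of all genes. The counts were 0 and 1 at 0.5%, beside 5.18%, and 1 and 1 at 1.0%, beside 6.46%. The shares of both lists were thus close to or below those of all genes. Among the genes counted was Vsig4, a complement receptor of Kupffer cells. It averaged 8.29 ± 0.18 (SD, n = 3) at 0.1% and 8.71 ± 0.13 (SD, n = 4) in control livers, with a difference of -0.42 (adjusted p = 0.490 by limma). Vsig4 was at 8.48, 8.25 and 8.12 in 0.1% replicates 2, 4 and 5. It is also on the Kupffer cell list, whose score in those samples was -0.13, -0.44 and -0.02. Colec11, a collectin of the lectin pathway, was 0.24 at 0.1% and -0.29 at 1.0%. Thbs1, thrombospondin, differed by 0.91 at 0.1% at a level near the floor, 3.93 ± 0.25 at 0.1% and 3.03 ± 0.06 in control livers. Pzp, a broad protease inhibitor, differed by -0.26 at 0.1%, Habp2, a protease that activates factor VII, by -0.57 at 0.5%, and Hrg, histidine-rich glycoprotein, by -0.22 at 1.0%.

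Of 13 regulators of liver-made plasma proteins, 4 had an unadjusted p under 0.05 at 0.1%, 3 at 0.5% and 0 at 1.0%, beside 8.46%, 5.18% and 6.46% of all genes, and none was called. Cebpa, a C/EBP factor of hepatocytes, averaged 10.64 ± 0.32 (SD, n = 3) at 0.1%, 9.71 ± 0.34 (SD, n = 2) at 0.5% and 10.27 ± 0.12 (SD, n = 4) in control livers. Its differences from control were 0.37 and -0.56 (adjusted p = 0.553 and 0.680 by limma). Nr1h4, the bile acid receptor FXR, differed by 0.42 at 0.1% and 0.36 at 0.5%, and Foxa1, a hepatocyte factor, by 0.72 at 0.5%. Il1r1, a receptor of interleukin-1, and Socs3, an inhibitor of interleukin-6 signals, differed by -0.85 and 1.12 at 0.1%, where their SDs were 0.88 and 0.76.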

How the data were processed

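Liver RNA of each mouse was copied to biotin-labelled cRNA and hybridised to 1-colour Affymetrix arrays, per the labels' protocols. The deposited values are linear intensities per probe set. The authors' summarisation, background correction and scaling were not given in the sources used here, and array medians ran from 9.49 to 18.0, so intensities were quantile-normalized, floored at 8 and log2-transformed in R 4.3.3. Fold changes on this scale understate dim transcripts. The table gives no detection calls, scan dates or depth.

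Probe sets were named from the platform annotation (34945 with 1 gene, 932 with several). The lowest 40% by mean were dropped, leaving 27022. Array pairs differing by an SD under 0.08 were averaged as repeat hybridisations and those under 0.15 as 1 RNA, thresholds chosen after seeing the data. One limma 3.58.1 fit (lmFit, eBayes with trend) covered 4 diets and 11 samples with 7 residual degrees of freedom, tests were two-sided, and the code was tested on simulated data. No source says which samples shared a cage or a processing day, and p-values reflect only how far these samples spread.

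The members, gene lists and promoter motifs were chosen with earlier results of these data known. Values in every sample are given for a panel of members (C3 and C4b unmeasured), the 2 members of each role with the lowest F-test p, and members with an unadjusted p under 0.05 against control. Of other genes up to 4 per list and comparison are named. Alternatives covered scaling, floor, filter, probe set choice, sample joining, variance model, samples fitted, replicate block and left-out samples.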

Additional observations from a re-analysis of the deposited data

Results flagged for a closer look

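Vitronectin (Vtn) was at 12.81 in control replicate 5, apart from the other 3 control samples by more than Dixon's 95% criterion allows. F7 was at 9.12 in control replicates 1 and 3, apart from the other control samples by the same criterion, and on the high side. Chance flags about 1 in 20 groups, and 36 members were examined in the 4 control samples, the only diet with enough samples for the criterion. The RNA that carried labels of 2 diets had a fibrinolysis score, the mean of Plg and Serpinf2 minus its control mean, of 0.064, above the highest control score of 0.027, although Plg alone lay below the control range in it.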

How the results depend on the processing

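Of the comparisons between diets, none gave a called member under the settings that treat repeat arrays as 1 sample. With each of the 24 arrays counted as a mouse, arrays taken as repeat hybridisations count as replicates. There 20 members were called at 0.1%, 1 at 0.5% and 2 at 1.0% against control, where 20.0, 3.42 and 3.00% of all genes were. Between doses (0.5% against 0.1%, 1.0% against 0.1%, 1.0% against 0.5%) 24, 16 and 6 were called, beside 30.4, 16.1 and 7.47% of all genes, and in the F-test 28, beside 35.8%. With the replicate number as a block on those arrays the counts were 21, 1 and 3, then 24, 15 and 6, and 29, beside 20.8, 3.26 and 2.78%, then 30.5, 16.7 and 7.17%, and 35.8% of all genes. The numbers share only a label: over 18 pairs of same-numbered samples, deviations from the diet means correlated at -0.15 to 0.13, with 3 pairs above 0.1.

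Counts of members at an unadjusted p under 0.05 were less stable. At 0.1% the count was 28 with all 24 arrays (35.8% of all genes), 27 with the replicate block (35.8%), 2 with eBayes without trend and 1 with wider joining of samples (an SD under 0.19, chosen after seeing the data), and leaving out 1 sample gave 1 to 11. At 0.5% it was 1 with no filter, 6 with all 24 arrays (17.2% of all genes), 7 with the block (17.2%), 1 without trend, 1 with wider joining, and 1 to 5 on leaving out 1 sample. At 1.0% it was 8 with median centring and 11 with no scaling, where the median of all genes was itself -0.20 and -0.35. It was 3 with a floor of 32, 2 with no filter, 0 with the mean over probe sets, 7 with all 24 arrays (18.9% of all genes) and 6 with the block (19.0%). With no joining beyond repeats it was 2, and 3 with no such joining and the mixed RNA under both diets. It was 0 without trend, 3 with only the diets compared, 0 with wider joining, and 0 to 1 on leaving out 1 sample. Counts without a share of all genes beside them cannot be read against the background.

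Medians of members moved with the scaling and with how arrays were counted as samples. The complement median at 0.1% was -0.27 with no scaling and -0.28 with all 24 arrays, block included, and the clotting median -0.21 with median centring, -0.29 with no scaling and -0.23 with all 24 arrays, block included. At 0.5% the complement median was -0.064 with median centring and -0.17 with no scaling, and the clotting median -0.11 and -0.21. At 1.0% the complement median was -0.14 and -0.30, and the clotting median -0.18 and -0.34, -0.039 with all 24 arrays, block included, and -0.040 with the mixed RNA under both diets and no joining beyond repeats (0.028 with no joining alone). The median of all genes with no scaling was -0.16, -0.19 and -0.35 at 0.1, 0.5 and 1.0%. Single members turned in sign. Proz at 0.1% was -0.0033 with the mean over probe sets, and Serping1 at 0.5% was -0.0045 with no scaling. C2 at 1.0% was -0.040 with median centring and -0.20 with no scaling. The median of all genes was -0.19 in that setting of Serping1 and -0.20 and -0.35 in those of C2, so both genes stayed above it. The cause of these shifts was not tested. Signal was far above the floor of 3 for each member, the dimmest being Pros1 at a mean of 6.65 and F7 at 8.94.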

Other observations

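The RNA labelled both as 0.1% (replicates 1, 3 and 6) and as 1.0% (replicate 1) belongs to no diet, and its 4 arrays entered no comparison. In it, 24 of 36 members lay below the control range, 10 above it and 2 within it, and 13 lay below all of the 11 other samples. These are 66.7, 27.8, 5.56 and 36.1% of the members, beside 40.2, 36.8, 23.0 and 18.1% of the 1467 bright genes. F11 was at 8.71, F5 at 9.70, C8a at 11.13 and Fgb at 12.88 in this RNA. Among the members above the control range were Mbl1 at 11.28, Mbl2 at 12.13, F12 at 9.65 and Proz at 10.79. The mean of all members was -0.30 relative to the control mean, that of the clotting cascade factors -0.76 and that of the terminal complement genes -0.59.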
